A study of Mus musculus with 24 samples.

Results

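The inhibin, activin and follistatin genes were followed in whole mouse ovary. The 10 genes were a list of names, Inha, Inhba, Inhbb, Fst, Fstl3, Acvr1, Acvr1b, Acvr2a, Acvr2b and Amh, out of 12393 genes that had a probe set of their own on the array. They were represented by 15 probe sets, a probe set being a group of short oligonucleotides against a single transcript. Line FL1 had been selected to generation 130 on an index of litter size and litter weight at birth, and DUKsi was its unselected control line. DUKsi came from the same genetic pool and was inbred by full-sib mating. Selection, inbreeding and drift therefore cannot be told apart in a comparison of the lines. Virgin females of both lines were 6 to 9 weeks old and at metestrus, the stage of the cycle that follows ovulation. The ovaries of 30 females of each line gave 6 RNA pools per line, and each pool was hybridized to 2 Affymetrix mouse arrays, 24 in all. The methods give 5 females per pool, whereas a sample label gives 6.

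Inhibins and activins are built from the same subunits. An inhibin joins the alpha subunit (Inha) to a beta subunit, either beta A (Inhba) or beta B (Inhbb), whereas activins are dimers of beta subunits. In the ovary these proteins come mainly from granulosa cells: activin raises pituitary release of follicle-stimulating hormone (FSH), inhibin lowers it, and follistatin binds activin and blocks it. Amh, anti-Mullerian hormone, belongs to the same protein superfamily and restrains the recruitment of small follicles.

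Values are the signals of the array software (MAS5, linear scale, arbitrary units), averaged over both arrays of a pool. Signals of different probe sets are not on a common scale, so that only lines are compared. Fold changes are log2 values of FL1 over DUKsi from limma, with the standard error (SE), and a difference was called at a Benjamini-Hochberg adjusted p under 0.01 over 22626 probe sets. Because the samples are whole ovaries, fewer cells of a type and less RNA per cell cannot be told apart.

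Transcripts of both beta subunits were lower in FL1 ovaries. Inhba fell by 0.52 on the log2 scale, and Inhbb fell by 0.69 on the probe set 1426859_at, while its other probe set, with -0.42, missed the threshold. The alpha subunit, follistatin, the receptors and Amh did not pass the test. Of the 15 probe sets, 2 were lower in FL1, while 1.55% of all probe sets were. None was higher, while 1.83% of all probe sets were, and calls in either direction made up 3.38%. At an unadjusted p under 0.05 limma put 5 of the 15 lower and 1, that of Amh, higher, beside 11.5% lower and 8.25% higher over all probe sets. The methods' t-test after adjustment called 1 lower and 0 higher, beside 1.11% and 1.13%. The lines did not overlap on the same 2 probe sets, and on 4.62% of all probe sets. The log2 fold change was negative on 11 of the 15 probe sets with a median of -0.16, beside a median of -0.07 and 61.7% negative values over all probe sets.

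**Figure D1:**
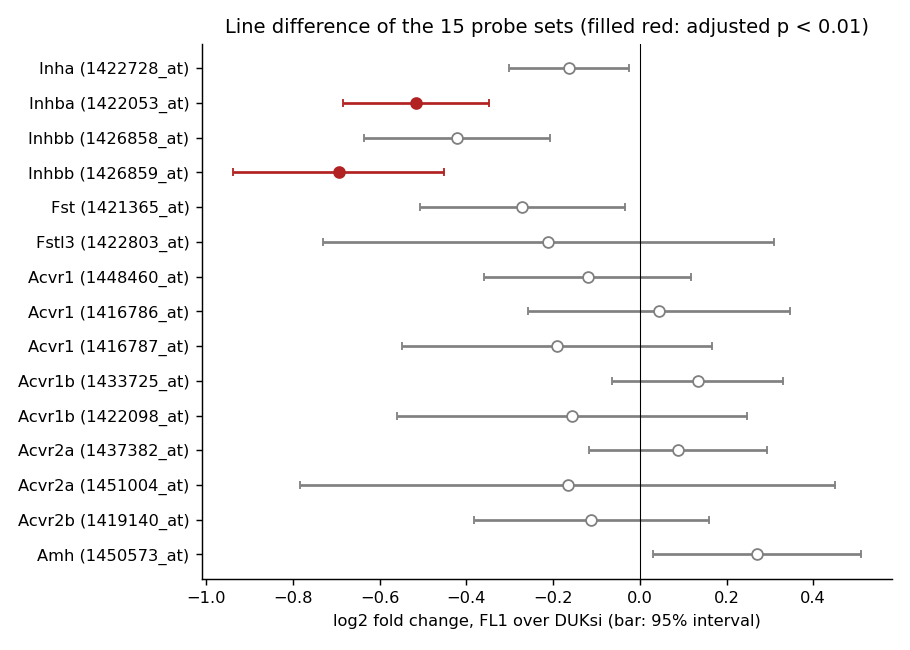
Log2 fold change of FL1 over DUKsi (x axis) for each of the 15 probe sets, with its 95% interval from limma over 6 pools per line. The intervals of Inhba and of both Inhbb probe sets lie wholly below 0, as do those of Inha and Fst, which come close to 0, and that of Amh lies wholly above 0 and likewise starts close to it. Filled red points mark an adjusted p under 0.01, which Inhba and 1 of the 2 Inhbb probe sets reached.

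Inhba encodes the beta A subunit of inhibin A and activin A. The Inhba signal (1422053_at) ranged between 3580 and 4696 in the FL1 pools with a median of 4451, and between 5200 and 7111 in the DUKsi pools with a median of 6164. Every FL1 pool was therefore below every DUKsi pool. The line means were 4318 ± 396 in FL1 and 6177 ± 609 in DUKsi (SD, n = 6 each), so that FL1 reached 69.9% of the DUKsi level. The log2 fold change was -0.52 (SE 0.08, limma adjusted p = 0.000646). Repeat arrays of a pool differed by a median of 0.13 log2 units on this probe set and by at most 0.24, less than the line difference. The ratio of the means was nearer to 1 than a fold of 1.5, so that the call was lost where that fold was required in addition.

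Inhbb encodes the beta B subunit of inhibin B and activin B and had 2 probe sets. On 1426859_at the signal lay between 967 and 1464 in FL1 pools with a median of 1333, and between 1580 and 2451 in DUKsi pools with a median of 2068. The lines were again fully separated. Means were 1282 ± 169 in FL1 and 2081 ± 336 in DUKsi (SD, n = 6 each), which put FL1 at 61.6% of DUKsi (log2 fold change -0.69, SE 0.11, limma adjusted p = 0.00114). The study lists this probe set among the transcripts it chose on these samples, so that its direction here is not independent evidence. It also measured Inhbb by quantitative PCR, in freshly mixed pools of the same RNA and in individual females. Of the transcripts measured that way, it reports a lack of association with the array only for Bcl2, Pi4k2b and Rgs5. It names Inhbb among the genes with very large variation between individuals. The call was lost when the 3' to 5' ratio of beta-actin, a measure of RNA integrity, entered the fit (-0.47, adjusted p = 0.0166), and in the methods' t-test on linear signals (adjusted p = 0.0144). The beta-actin ratio itself did not overlap between lines.

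The brighter Inhbb probe set, 1426858_at, missed the threshold. Its signal ranged between 4628 and 7499 in FL1 pools with a median of 5504, and between 6746 and 8610 in DUKsi pools with a median of 7490. A single pool, FL1 pool 1 at 7499, was inside the DUKsi range, and the other 5 FL1 pools were below the lowest DUKsi pool. Means were 5673 ± 1008 in FL1 and 7534 ± 680 in DUKsi (SD, n = 6 each), with a log2 fold change of -0.42 (SE 0.10, limma adjusted p = 0.0174). Without FL1 pool 1 the log2 fold change was -0.51 and the adjusted p was 0.00125. The line difference of 1426859_at minus that of 1426858_at was -0.27 (SE 0.13), which the exact permutation test over the pools did not separate from 0 (two-sided p = 0.0628, adjusted p = 0.287 over 5 pairs of probe sets).

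**Figure D2:**
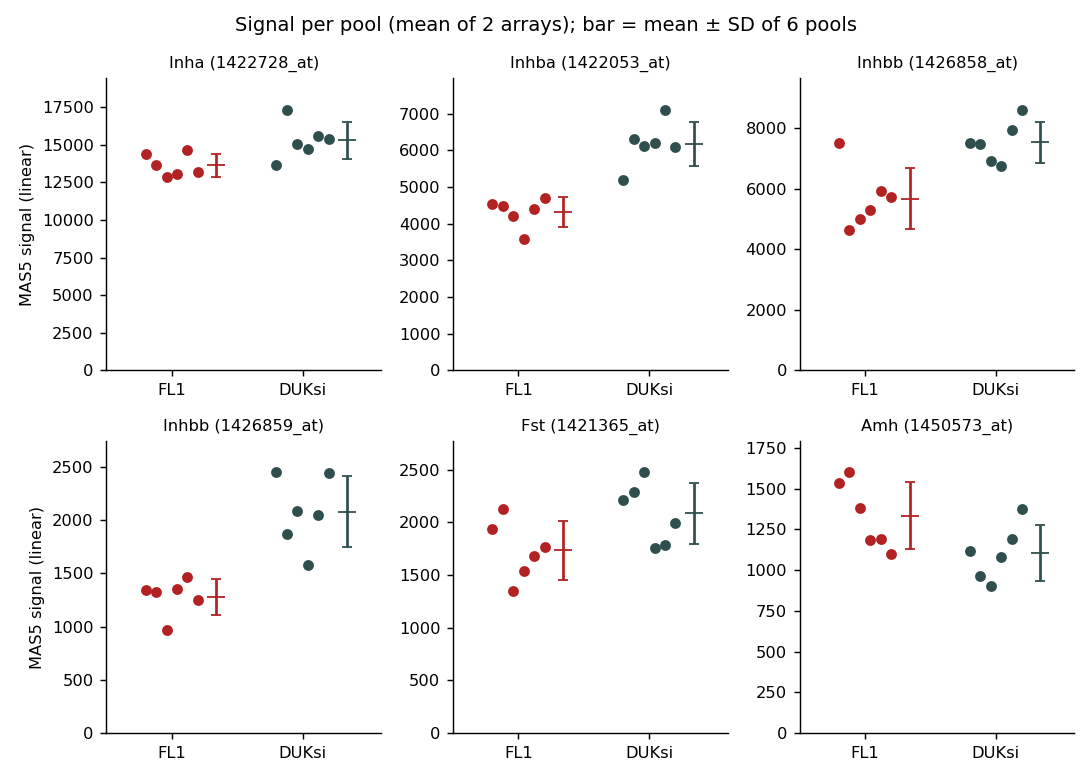
MAS5 signal (y axis, linear, from 0) of each FL1 pool and each DUKsi pool for Inha, Inhba, both Inhbb probe sets, Fst and Amh, with the mean and SD of the 6 pools of a line beside the points. The lines do not overlap for Inhba and for Inhbb 1426859_at, FL1 pool 1 alone reaches the DUKsi range for Inhbb 1426858_at, and Inha, Fst and Amh overlap.

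The starts of Inhba and Inhbb are shown because each of these genes had a probe set that was lower in FL1. Each run covers 250 bases before to 50 after the start in RefSeq on GRCm38.p6, on the strand of the gene. Capitals mark a match to the Sp1 site GGGCGG, read here on the other strand.
Inhba, chr13:16011601-16011900, plus strand: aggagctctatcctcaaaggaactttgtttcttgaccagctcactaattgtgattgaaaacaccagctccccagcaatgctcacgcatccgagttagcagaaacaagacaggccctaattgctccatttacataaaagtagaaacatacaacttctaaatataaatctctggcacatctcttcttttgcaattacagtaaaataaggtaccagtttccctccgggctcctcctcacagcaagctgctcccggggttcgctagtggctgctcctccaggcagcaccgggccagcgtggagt
Inhbb, chr1:119422199-119422498, minus strand: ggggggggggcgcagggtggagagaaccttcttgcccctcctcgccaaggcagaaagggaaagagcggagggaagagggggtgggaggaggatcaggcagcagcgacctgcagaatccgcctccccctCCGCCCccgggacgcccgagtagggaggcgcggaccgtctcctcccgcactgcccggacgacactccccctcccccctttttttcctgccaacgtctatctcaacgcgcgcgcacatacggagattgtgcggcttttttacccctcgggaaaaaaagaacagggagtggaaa
The Inhbb run had a GC content of 64.3%, with its single Sp1 match at position -122 from the start, whereas the Inhba run had 47.7% and no match to any motif searched. RefSeq promoters were at hand for 8 of the 10 genes, Fst and Amh being the ones without, and 6 of the 8 held GGGCGG on either strand, as did 35.7% of all 32851 promoters. None of the 8 held the cAMP response element TGACGTCA (1.79% of all promoters), its first part TGACG (20.8%), which the full element contains, the NR5A site AAGGTCA (4.72%), a GATA site written AGATAA or TGATAA (18.6%), or the Smad box GTCTAGAC (0.213%), both strands being searched. These matches describe the letters of a short window and are not evidence of binding.

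Inha encodes the alpha subunit that is found only in inhibins. Its signal (1422728_at) ranged between 12874 and 14680 in FL1 pools with a median of 13426, and between 13643 and 17341 in DUKsi pools with a median of 15232. The ranges overlapped, with 3 FL1 pools below the lowest DUKsi pool. Means were 13645 ± 755 in FL1 and 15297 ± 1219 in DUKsi (SD, n = 6 each), or 89.2% of the DUKsi level (log2 fold change -0.16, SE 0.07, limma adjusted p = 0.169).

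Whether alpha and beta subunits differed in their line difference was tested on the log2 signal of a subunit minus that of another in each pool, over 3 pairs with the brightest probe sets. Inhba was lower relative to Inha in every FL1 pool than in any DUKsi pool, with a difference in log2 fold change of -0.35 (SE 0.07, exact two-sided permutation p = 0.00216, the smallest that 6 against 6 pools can give, adjusted p = 0.00649). For Inhbb minus Inha the difference was -0.26 (SE 0.10, exact permutation p = 0.039, adjusted p = 0.0584), which did not pass. With the other Inhbb probe set, a choice made after its values were seen, the difference was -0.53 (SE 0.14, exact permutation p = 0.00216, adjusted p = 0.00433 over 2 pairs). The beta subunits were not separated from each other, with Inhbb minus Inhba at 0.09 (SE 0.12, exact permutation p = 0.465) on the brightest probe set and -0.18 (SE 0.17, exact permutation p = 0.316) on the other. Each comparison reads a subunit by 1 probe set, and that of Inha was at percentile 99.8 of the mean signal. The 2 probe sets of Inhbb differed by -0.27 in log2 fold change. A difference between subunits and one between probe sets therefore cannot be told apart here.

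Whether pools of a line that were high in a subunit were also high in another was asked next. After the line means were subtracted, Inha and Inhba correlated over the 12 pools with Pearson r = 0.55 (permutation p = 0.0776, adjusted p = 0.233) and Spearman rho = 0.62 (permutation p = 0.0435, adjusted p = 0.13). The r was 0.44 without the 2 pools farthest from the median of Inha. Inha and Inhbb gave r = 0.39 and rho = 0.50 (permutation p = 0.183 and 0.116), with r = 0.65 without those 2 pools, and Inhba and Inhbb gave r = 0.22 and rho = 0.34 (permutation p = 0.494 and 0.315), with r = 0.26 without the 2 pools farthest from the median of Inhba. None of the 3 relations passed after adjustment.

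The genes whose signals deviated most alike among the 12 pools, out of 10408 probe sets brighter than the median, were Pdcd6ip, Nr2c2 and Nrip1 for Inhba, with r of 0.95, 0.92 and 0.91. For Inhbb they were Emc8, Dnm1 and Gdf9, the last an oocyte growth factor, with r of 0.91, 0.87 and 0.87. For Inha they were Cpeb1, Rpl37a and Med4, with r of 0.90, 0.89 and 0.89. These coefficients are the highest of many and are given as a description.

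Follistatin, the product of Fst, binds activin and neutralizes it. Fst (1421365_at) ranged between 1349 and 2128 in FL1 pools with a median of 1722, and between 1753 and 2473 in DUKsi pools with a median of 2100. The ranges overlapped, with 3 FL1 pools below the lowest DUKsi pool. Means were 1732 ± 278 in FL1 and 2084 ± 288 in DUKsi (SD, n = 6 each), with a log2 fold change of -0.27 (SE 0.11, limma adjusted p = 0.181). The value was -0.06 with the beta-actin ratio in the fit.

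Fstl3, a follistatin-like protein that also binds activin, was close to the dim end of the array. Its signal (1422803_at) averaged 70.9 ± 14.7 in FL1 and 84.5 ± 26.0 in DUKsi (SD, n = 6 each), and 4 of the 24 arrays were below 48.6, the 20% quantile of the probe sets. The log2 fold change of -0.21 had an interval of -0.73 to 0.31 (limma adjusted p = 0.684), and repeat arrays of a pool differed by up to 1.35 log2 units. The interval leaves room for a difference in either direction.

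Activin binds a type II receptor, Acvr2a or Acvr2b, which then recruits the type I receptor Acvr1b, and Acvr1 is a type I receptor used mainly by bone morphogenetic proteins. All 8 receptor probe sets missed the threshold, with adjusted p between 0.463 and 0.900. Acvr2a (1437382_at) averaged 665 ± 85.3 in FL1 and 625 ± 67.8 in DUKsi (SD, n = 6 each, as for all receptors), with a log2 fold change of 0.09 and an interval of -0.12 to 0.29. Acvr2b (1419140_at) averaged 187 ± 33.1 in FL1 and 200.4 ± 12.2 in DUKsi, with -0.11 and an interval of -0.38 to 0.16. Its FL1 pools spread wider than the DUKsi pools, 4 of them below the lowest DUKsi pool and 2 above the highest.

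Acvr1b averaged 522 ± 43.0 in FL1 and 477 ± 56.5 in DUKsi on its brighter probe set (1433725_at), with a log2 fold change of 0.13 and an interval of -0.06 to 0.33. The dimmer one (1422098_at) had -0.16, and its repeat arrays differed by up to 1.75 log2 units within a pool. Acvr1 had 3 probe sets with log2 fold changes of -0.12 (1448460_at), 0.04 (1416786_at) and -0.19 (1416787_at), and none of the intervals left out 0. With the beta-actin ratio in the fit, 1416786_at had 0.35 (adjusted p = 0.0901) and 1416787_at had -0.57 (adjusted p = 0.0215). The dim Acvr2a probe set 1451004_at had -0.17 with an interval of -0.78 to 0.45, and 5 of its arrays were below 48.6. For the receptor genes with several probe sets, none of the differences between probe sets passed, with adjusted p between 0.287 and 0.751 (exact permutation test). The sign changed under other processing for 4 receptor probe sets, 1 of Acvr1, both of Acvr2a and that of Acvr2b, so that no direction is given for them.

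Amh was the member with the highest positive log2 fold change. Its signal (1450573_at) ranged between 1100 and 1600 in FL1 pools with a median of 1287, and between 903 and 1378 in DUKsi pools with a median of 1100. The ranges overlapped, with 3 FL1 pools above the highest DUKsi pool. Means were 1334 ± 206 in FL1 and 1106 ± 169 in DUKsi (SD, n = 6 each), with a log2 fold change of 0.27 (SE 0.11, limma adjusted p = 0.191), which did not pass.

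The wider activin pathway was described by 17 measured genes of a list of 21, which holds further subunits, receptors, Smads and modulators. None of the 17 passed in either direction by limma or by the methods' t-test, 2 were higher and 4 lower at an unadjusted limma p under 0.05 (9.92% and 10.6% of all 12393 genes by their brightest probe set), and the median log2 fold change was -0.11, beside -0.05 over all genes. The brightest were Skil, a repressor of Smad activity, with 2534 ± 392 in FL1 and 2078 ± 370 in DUKsi (adjusted p = 0.181), and Smad4, the Smad shared by activin and bone morphogenetic proteins, with 2374 ± 189 in FL1 and 1929 ± 179 in DUKsi (adjusted p = 0.0246). Bambi, a decoy receptor of the superfamily that was picked after its values were seen, came closest with 286 ± 34.9 in FL1 against 398 ± 45.4 in DUKsi, a log2 fold change of -0.48 (adjusted p = 0.0114). Its adjusted p was 0.00489 without FL1 pool 3 and 0.00935 without DUKsi pool 4.

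Amh acts through its own type II receptor, Amhr2, and through the Smads of bone morphogenetic proteins. None of the 5 genes listed for it passed by limma or by the methods' t-test, with a median of -0.03, and 1 was higher and 1 lower at an unadjusted limma p under 0.05 (9.92% and 10.6% of all genes). The brightest were Bmpr1a, a type I receptor, with 1373 ± 187 in FL1 and 1390 ± 115 in DUKsi (adjusted p = 0.911), and Smad1 with 1130 ± 179 in FL1 and 821 ± 57.6 in DUKsi, a log2 fold change of 0.45 (adjusted p = 0.01005).

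Of 8 measured genes of 10 that are known to act on transcription of the inhibin subunits, 1 passed, and it was lower in FL1. Among all 12393 genes by their brightest probe set, 205 were lower and 258 higher. The list gene that passed was Nr5a1, steroidogenic factor 1, with 1553 ± 117 in FL1 against 2252 ± 267 in DUKsi. Its log2 fold change was -0.53 (SE 0.08, limma adjusted p = 0.000569). The other 7, which include the FSH receptor Fshr, had adjusted p values above 0.01. The list had a median of -0.26, with 7 of the 8 log2 fold changes negative. At an unadjusted limma p under 0.05, 0 were higher and 5 lower, beside 9.92% and 10.6% of all genes. This list shares 3 measured genes, Fshr, Nr5a2 and Esr2, with the granulosa markers below, so that the lists are not separate findings. The study also reports Nr5a2 as changed on these samples.

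**Figure D3:**
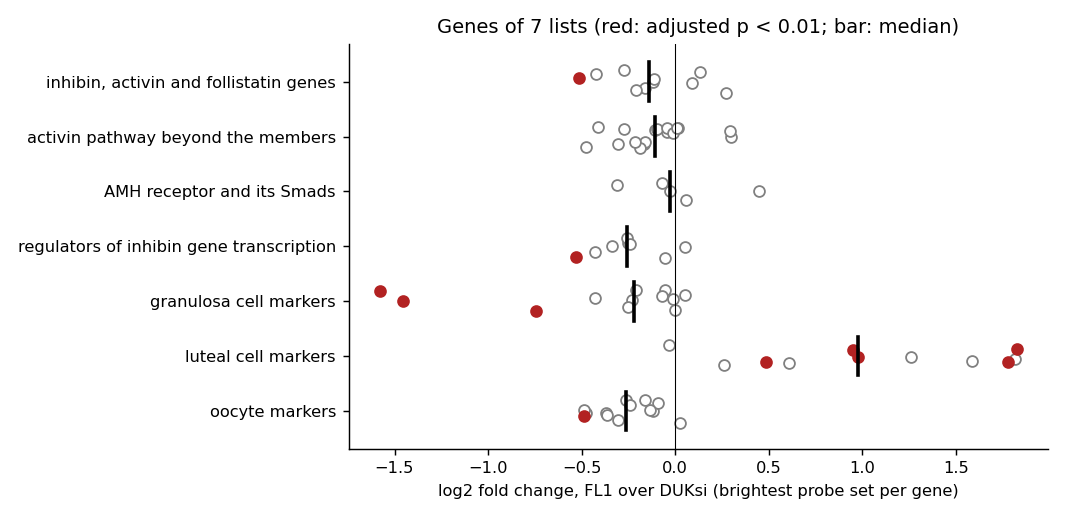
Log2 fold change of FL1 over DUKsi (x axis) for the brightest probe set of each measured gene in 7 lists, with the vertical jitter carrying no meaning. Red points passed at an adjusted p under 0.01 and black bars are list medians, -0.14 for the inhibin, activin and follistatin genes, -0.11 for the rest of the activin pathway, -0.22 for granulosa and 0.98 for luteal cell markers.

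Every measured marker of granulosa, luteal, theca and oocyte cells was above 48.6 in at least 1 line, and some of them differed between lines as well. Over all 12393 genes by their brightest probe set, 205 were lower in FL1 and 258 higher. Of 12 measured granulosa markers 3 were lower in FL1 and none higher (median -0.22), namely Kctd14, Cdh2 and Ccnd2, all of them genes on the list that the study chose on these samples. The summed signal of all 12 was 24396 to 28958 in FL1 and 29186 to 35463 in DUKsi. Of 11 luteal markers 5 were higher in FL1 and none lower (median 0.98), among them Ptgfr, Hsd17b7, Cyp11a1 and Idh1, with sums of 72564 to 85654 in FL1 and 37451 to 57535 in DUKsi. Of 13 oocyte markers 1, Zp3, was lower (median -0.26), with sums of 8728 to 11566 in FL1 and 11585 to 13793 in DUKsi. None of these 3 sums overlapped between lines (exact permutation p = 0.00216 for each). The granulosa and luteal sums hold genes that the study chose on these samples, among the luteal ones Ptgfr and Cyp11a1. The p-values of those sums are therefore not independent evidence. Each sum adds probe sets that are not on a common scale, so that bright probe sets can outweigh dim ones. The brightest granulosa marker, Gja1, had 9832 ± 1069 in FL1 and 9787 ± 551 in DUKsi, so that the lower granulosa sum came from other markers. Of the 12 granulosa markers 9 did not pass. At an unadjusted limma p under 0.05, 6 of the 12 were lower and 0 higher, beside 10.6% and 9.92% of all genes. The part that cell composition has in the lower Inhba and Inhbb signals was not tested.

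Of 6 theca markers Cyp11a1, which is also counted among the luteal markers, was higher and Aldh1a1 lower (median -0.34). Of 9 markers of surface epithelium and oviduct Upk3b was higher (median 0.19). These counts stand beside 258 higher and 205 lower of all 12393 genes. At an unadjusted limma p under 0.05, 1 theca marker was higher and 5 were lower, beside 9.92% and 10.6% of all genes. The summed signal of the surface epithelium and oviduct list was 2542 to 2839 in FL1 and 1564 to 7297 in DUKsi, where pool 4 stood apart. None of the 10 macrophage markers passed by limma or by the methods' t-test (median 0.26), with 2 higher and 1 lower at an unadjusted limma p under 0.05 (9.92% and 10.6% of all genes). The 3' to 5' ratio of beta-actin was 1.67 ± 0.42 in FL1, with pool 3 at 2.45, and 1.27 ± 0.05 in DUKsi (SD, n = 6 each, exact permutation p = 0.00216). For Gapdh it was 1.53 ± 0.42 in FL1, against 1.28 ± 0.15 in DUKsi (exact permutation p = 0.203). The lowest beta-actin ratio of an FL1 pool, 1.3215, was above the highest of a DUKsi pool, 1.3169. With the beta-actin ratio in the fit Inhba kept its call. Because the ratio goes with the line, that fit cannot cleanly tell line from RNA integrity. Without FL1 pool 3 and DUKsi pool 4 the same count of 2 probe sets was lower.

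Across 27 other ways of processing, the log2 fold change of Inhba stayed between -0.57 and -0.43 with an adjusted p of at most 0.00615. Inhbb 1426859_at lay between -0.77 and -0.47 and Inhbb 1426858_at between -0.51 and -0.32, lower in FL1 throughout. Inha lay between -0.23 and -0.08, Fst between -0.33 and -0.06 and Amh between 0.21 and 0.37, and these 3 genes passed in none of them.

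**Figure D4:**
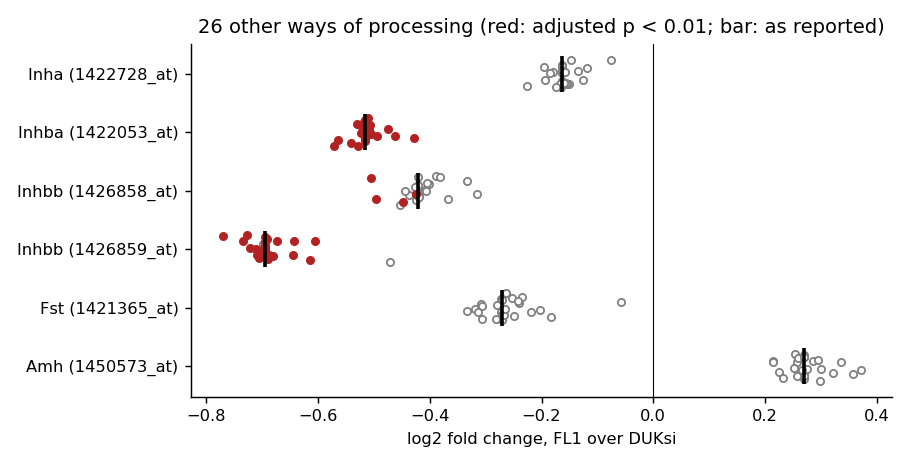
Log2 fold change of FL1 over DUKsi (x axis) for 6 probe sets under 26 other ways of processing (points, red where the adjusted p was under 0.01), with the reported value as a black bar. Inhba is red throughout, Inhbb 1426859_at in all but 2, Inhbb 1426858_at in a minority, and no point of any probe set crosses 0.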

How the data were processed

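RNA of 6 FL1 pools and 6 DUKsi pools was hybridized by the authors to Affymetrix mouse expression arrays, 2 per pool. The deposited intensities are linear signals from MAS5, which the authors scaled to a common target per array. Their trimmed mean was the same on all 24 arrays, and array medians ranged between 212 and 245. The median signal of a pool was lower in FL1, with 221 ± 8.0 against 235 ± 4.9 in DUKsi (SD, n = 6 each, exact permutation p = 0.0108). The number of pools limits the precision. Arrays of a pool were averaged on the linear scale and counted as 1 sample. The p-values set the line difference against the spread between pools. Variation between individual females is not seen in pools, and the study reports from quantitative PCR that it was much larger.

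Log2 pool values entered a linear model in limma 3.58.1 under R 4.3.3, moderated by empirical Bayes with an intensity trend, without the 64 control probe sets. The methods' limit of 0.01, set there on Storey q-values, was applied to Benjamini-Hochberg adjusted p-values, with their fold threshold of 1.5 as an alternative. Differences between genes, and pool measures, were tested by exact permutation over pools, and correlations within lines by 100000 permutations.

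Probe sets were named through the platform annotation: 20380 had 1 gene symbol, 691 had several and 1555 had none. Where a gene had several probe sets, lists used the one with the highest mean signal. All 10 genes of the family are named. From other lists, up to 4 genes with the largest change past the test are named, or the 2 brightest at most if none did, and 3 genes of most similar pattern per subunit. The genes and lists were chosen with earlier results of these data known. Present calls and single-probe intensities were not used here.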

Additional observations from a re-analysis of the deposited data

How the results depend on the processing

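Array number, scaling, normalization, filter, test, covariate and left-out pools were varied. Of 402 fold changes of the 15 probe sets under an alternative, 387 kept their direction and their side of the threshold, 5 passed in addition, 2 no longer passed and 8 changed sign. Inhbb 1426858_at passed with the first array of each pool (adjusted p = 0.00765), all 24 arrays and a random effect of pool (0.000695), quantile normalization (0.00605), without FL1 pool 1 (0.00125) and at a threshold of 0.05. The probe sets lower in FL1 numbered 1 and not 2 under the methods' t-test and with the beta-actin ratio as a covariate, where Inhbb was lost, and with a fold of at least 1.5 in addition, where Inhba was lost. The genes with a probe set past the test likewise numbered 1 in these 3 settings. Leaving out a pool gave 2 to 3 lower probe sets.

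The sign changed for Acvr1 1416786_at (-0.095 with the second array of each pool, and -0.038 to 0.15 over left-out pools), Acvr2a 1437382_at (-0.014 with the first array and -0.073 with the beta-actin ratio), Acvr2a 1451004_at (0.044 with the beta-actin ratio, and -0.32 to 0.041 over left-out pools) and Acvr2b (0.079 with the beta-actin ratio). None of these passed. The cause was not tested. Inhbb minus Inha was -0.31 with the first array (adjusted p = 0.00974), -0.21 with the second array (adjusted p = 0.344, exact permutation) and -0.53 with the other Inhbb probe set, and Inhbb minus Inhba was -0.18 with that probe set, which was brought in after seeing the data.

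All probe sets past the test numbered 764, with 468 on the second array, 1278 with all 24 arrays, 507 with the methods' t-test, 1241 with the beta-actin ratio and 1564 at an adjusted p under 0.05. Left-out pools gave 573 to 943. With an equal median per array 634 were higher and 229 lower, against 413 and 351, and the lower share was 26.5%, against 45.9%. The median over all probe sets was then 0.02, against -0.07, and that of the 15 probe sets -0.07, against -0.16. For the activin pathway, 1 gene passed and not 0 in several settings. It was Smad4 with the second array and with an equal median per array, and Bambi with all 24 arrays, without dim probe sets, with the beta-actin ratio, and without both FL1 pool 3 and DUKsi pool 4. At 0.05 there were 2, and left-out pools gave 0 to 1.

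Equal replicate numbers did not pair the pools of the lines, since their deviations correlated between -0.26 and 0.17. With the replicate number as a block, 2 probe sets of the family were lower and 564 probe sets passed in all. Dim probe sets of Fstl3, Acvr1b and Acvr2a were left out by the filter on low signals, and signals near background limit what they can show.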
